A study of Mus musculus with 9 samples.

Results

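Fructose is taken up by the liver and broken down there outside the main control point of glycolysis, so a high intake feeds carbon into lactate, glucose and fat. The same organ makes cholesterol, exports sterols into bile, turns ammonia into urea, and oxidizes drugs and other foreign compounds. Much of this is set at the level of transcripts, which makes the liver transcriptome a usual readout in rats that drink fructose.

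Livers of 9 male Wistar rats were sequenced, 3 in each of 3 groups, which were the control, the model and the HME group. Control rats drank water and model rats drank 15% fructose, and both received saline by gavage. The rats of the HME group, labelled DSS, drank the same fructose and received 1.8 g/kg of a 50% methanol extract of Danggui-Shaoyao-San, a traditional Chinese herbal formula. The treatment lasted 8 weeks, all rats were fasted for 12 h, and chloral hydrate was given before the livers were taken.

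The comparison described here set the 3 model rats against the 6 control and HME rats taken as 1 pooled arm, in a single edgeR fit over the 9 libraries. It asks which genes stood apart in fructose-fed rats without extract, against rats that either drank no fructose or drank it with the extract. A gene was taken as a member when its CPM, a count scaled to the size of its library and by TMM factors, lay above or below all 6 other rats in each of the 3 model rats. Of 19686 genes in the table, 12897 had enough counts to be tested, and 487 of them (3.78%) met this rule. The model rats were above the others in 283 genes (2.19%) and below them in 204 (1.58%). These numbers describe the ordering of 9 rats, and since they come from the same values as the fit they are no second test of it.

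By the thresholds of the study's methods, an FDR of at most 0.01 and a log2 change of 0.5 or more in either direction, the edgeR fit called 0 of 12897 genes (0%), while 916 had an unadjusted p under 0.05 (7.1%) and the DESeq2 Wald test called 59. At an FDR of at most 0.05 with the same minimum change, edgeR called 14 genes (0.109%), of which 12 rose in the model group and 2 fell. All 14 are among the 487 members. The words rose and fell are kept below for these 14 genes. With 1 rat left out in turn, 6 of the 9 fits called 0 genes at an FDR of at most 0.05 and the other fits called at most 9, so these calls rest on the full set of rats. Without model rat 1 the count was 0, with a lowest FDR of 0.0656 for this fit.

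**Figure D1:**
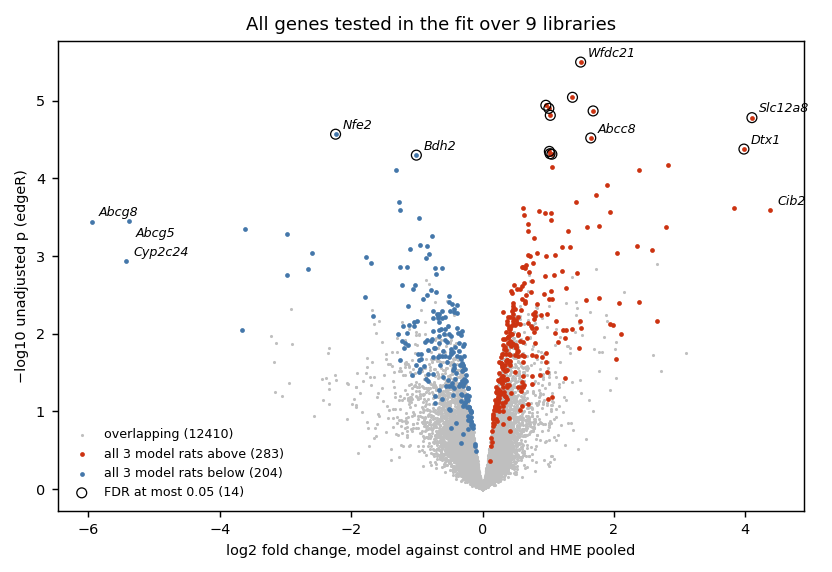
Each point is 1 of the 12897 genes tested, with the log2 fold change of the model group against the pooled control and HME rats on the x axis and −log10 of the unadjusted edgeR p on the y axis. Red and blue points are the 283 and 204 genes with all model rats above or below the other rats, and circles mark the 14 genes at an FDR of at most 0.05, of which 12 lie on the right.

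Total counts ranged from 14345819 to 26837227 per library, and TMM factors from 0.871 to 1.14. Labelled as liver, the libraries carried the 8 hepatocyte markers at a summed 156000 to 196000 CPM, and none of these markers was at 0, although Cps1 and Apoc3 were themselves members, below and above. Of 9 marker lists for other cell types, the 1 with members was that of proliferating cells, with 2 of its 6 genes above in the model rats. Its summed level was 22 to 36.9 CPM in control, 24.6 to 32.2 in model and 18.2 to 21.5 in HME rats. In whole liver, fewer cells of a type and less RNA per cell cannot be told apart.

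Model rat 1 stood apart from the other libraries by transcript length. With lengths taken from mouse transcripts matched by symbol (11178 genes, 86.7%), its deviation from the mean of the 9 libraries had a Spearman correlation with length of -0.577 across genes, against -0.148 to 0.254 in the other 8 libraries. Genes are not independent replicates, and this value is given as a description. Genes were split by length into 5 bins of like size. In the shortest bin the median log2 deviation of model rat 1 was 0.29, and in the longest bin it was -0.397. In those same bins the other 8 libraries lay between -0.0835 and 0.0491 and between -0.0501 and 0.135. This rat was also the deepest library, with 26837227 counts.

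The members shared this slope in part. Their median length was 2606 bases for genes above in the model rats and 3536 for genes below, against 3189.5 for all genes with a length. In the shortest bin 2.77% of genes were above and 0.581% below, a ratio of 4.77, and in the longest bin 0.894% were above and 1.16% below. When the trend of each library in length and GC content was removed, the shortest bin held 2.64% above and 1.88% below, a ratio of 1.4. Without model rat 1, and so with only 2 model rats to order, the slope ran the other way. The shortest bin then held 3.05% above and 3.8% below, a ratio of 0.802. The longest bin held 4.89% above and 1.65% below, a ratio of 2.97. Model rat 1 was the farthest of the 3 model rats from the other rats in 133 of 283 genes above and in 93 of 204 genes below.

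**Figure D2:**
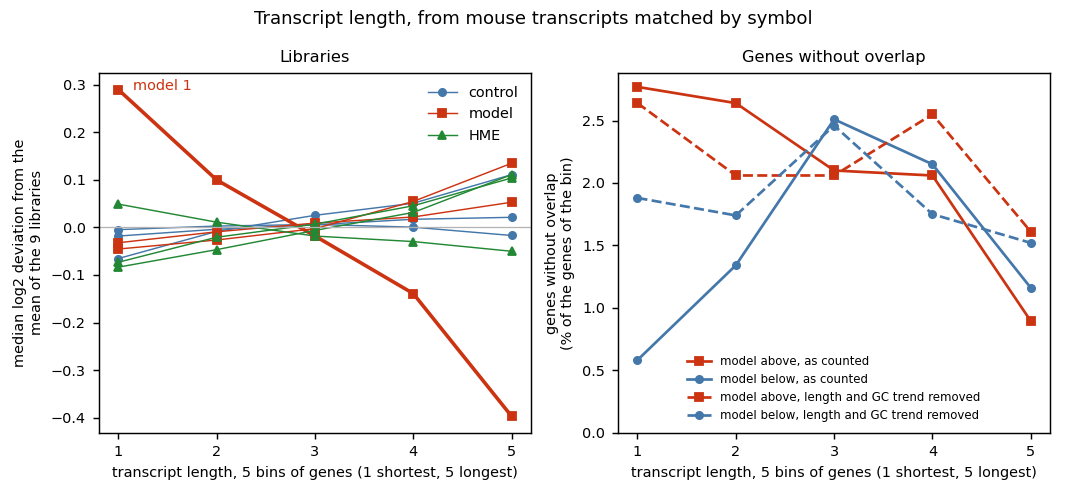
The left panel gives the median log2 deviation of each library from the mean of the 9 libraries in 5 bins of genes ordered by transcript length, with control as circles, model as squares and HME as triangles. Model rat 1 (thick line) falls from 0.29 to -0.397, while the other libraries stay between -0.0835 and 0.135. The right panel gives the percentage of genes in each bin with all model rats above (red) or below (blue) the other rats, as counted (solid) and after removal of the length and GC trend (dashed).

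After removal of the trend 387 of the 487 genes still had all model rats outside the others on the same side, 223 above and 164 below. At an FDR of at most 0.05, 13 of the 14 genes stayed (the exception was Tmem94, at 0.0596). Genes without a matched length were left unadjusted, so the order of the rats could not change for them. A length was matched for 234 of the 283 genes above and 173 of the 204 below. Among the 14 genes, RGD1311739 and Nupr1l1 had none. Without model rat 1, 458 of the 487 members lay outside, among 984 genes that did so with only 2 model rats to order. A member keeps its 2 remaining model rats outside by construction, apart from changes in scaling and filter. The 458 therefore does not measure how far the members rest on model rat 1. Scaling by library size alone placed the median of all genes at a log2 difference of -0.08, and 277 of the 487 members then still lay outside on the same side. Genes above made up 48.1% of all genes outside under this scaling and 58.1% with TMM.

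Wfdc21, which encodes a small secreted protein of the whey acidic protein family, had the lowest p of all genes. Its level was 104, 70.8 and 57.8 CPM in the 3 model rats, 22.8, 32 and 25.9 CPM in control and 29, 23.8 and 31.6 CPM in HME rats. Model rat 1 was the highest, and the lowest model rat was well above the highest of the other 6. The log2 change was 1.49 ± 0.18 (SE), with an FDR of 0.0307 by edgeR. Wfdc21 has a short transcript, 434 bases in the mouse, and with the length and GC trend removed its log2 change was 1.30, with an FDR of 0.00271. Without model rat 1 the log2 change was 1.215, with an FDR of 0.0656.

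Zfp385a, a zinc finger protein that binds RNA and DNA, was at 62.1, 64.5 and 65.8 CPM in model rats, which lay close together. The control rats were at 34, 42.8 and 31.1 CPM and the HME rats at 28.6, 31.1 and 29.5 CPM. The log2 change was 0.96 ± 0.13 (FDR 0.0307 by edgeR). Ptprs, a receptor-type tyrosine phosphatase, was at 143, 195 and 179 CPM in model rats against 73.9 to 82.5 in control and 81.2 to 102 in HME rats. Its log2 change was 1.01 ± 0.14 (FDR 0.0307 by edgeR). Its transcript is long, 6855 bases in the mouse, and model rat 1 was the lowest of the 3.

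Rmdn2, a regulator of microtubule dynamics, was at 120, 91.6 and 131 CPM in model rats and at 45.9 to 68.1 CPM in the other 6, and its log2 change was 1.03 ± 0.14. Tmem94, a membrane protein of the endoplasmic reticulum, was at 56.6, 54.2 and 53.8 CPM in model rats and at 20 to 35.7 CPM in the others. Inhba encodes the beta A subunit shared by activin A and inhibin A, secreted ligands of the TGF-beta family that the adult liver makes. It was at 31.6, 35.5 and 47.9 CPM in model rats, 15.2, 20.8 and 21.3 in control and 15.9, 21.3 and 18.2 in HME rats, which put the model rats above and left the other groups interleaved. Lrrc61, a leucine-rich repeat protein, was at 28.4, 21.1 and 15.8 CPM against 9.61 to 11.9 CPM. The log2 changes of Tmem94, Inhba and Lrrc61 were 1.02 ± 0.16, 1.03 ± 0.16 and 1.06 ± 0.17, each with an FDR of 0.0464 by edgeR.

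Abcc8 encodes the sulfonylurea receptor SUR1, the regulatory subunit of ATP-sensitive potassium channels, which in pancreatic beta cells couple glucose metabolism to insulin release. In these livers it was at 19.3, 12.7 and 15.6 CPM in model rats, 3.01, 5.55 and 4.2 in control and 6.96, 6.53 and 4.13 in HME rats. The model rats were apart from the others, and the log2 change was 1.65 ± 0.25 (FDR 0.0434 by edgeR). Of the 4 channel subunits tested, Kcnj11, the pore-forming partner of SUR1, was the other member. It was at 2.06, 0.579 and 1.36 CPM in model rats and at 0 to 0.537 CPM in the others, a level of few reads, with a log2 change of 2.65 ± 0.80 and an FDR of 0.461. Kcnj11 passed the count filter only through the model rats, so it gives no separate support to the Abcc8 result. The channel subunits were listed together after the members had been seen. The summed level of the pancreas markers was 20.2 to 25 CPM in model rats, which was above the control rats (14.5 to 19.3) and overlapped the HME rats (16.6 to 24.6), and the part of this in the result was not tested.

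The remaining rises at an FDR of at most 0.05 were RGD1311739, Nupr1l1, Slc12a8 and Dtx1, which lie outside the naming rule because of their names or low counts. RGD1311739 was at 13.9, 11.3 and 14.6 CPM in model rats and at 3.69 to 6.26 CPM in the others (log2 change 1.37 ± 0.18). Nupr1l1, a relative of the stress-induced nuclear protein Nupr1, was at 3.43, 2.7 and 4.01 CPM against 0.882 to 1.31 CPM. Slc12a8, a transporter of the cation-chloride cotransporter family, was at 3.68, 4.83 and 1.54 CPM in model rats and at no more than 0.333 CPM in the others. Dtx1, a ubiquitin ligase of the Notch pathway, was at 0.814, 0.965 and 2.72 CPM against at most 0.2 CPM. The pooled rats held only a few reads of Slc12a8 and Dtx1, with a mean of 23 and 9.78 counts over the 9 libraries, so the fitted log2 changes of 4.10 ± 0.58 and 3.98 ± 0.62 depend on how such low counts are modelled. Both genes passed the count filter only through the model rats, so they were tested only because those rats were high. Without model rat 3 the log2 change of Dtx1 was 3.23.

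Nfe2 and Bdh2 were the 2 genes that fell. Nfe2, a transcription factor best known from megakaryocytes and red cell precursors, was at 1.11, 0.901 and 0.988 CPM in model rats, 4.33, 2.69 and 3.53 in control and 5.98, 6.86 and 5.17 in HME rats. Its log2 change was -2.24 ± 0.33 (FDR 0.0434 by edgeR), and every model rat was below every other rat. The summed red blood cell markers overlapped, at 390 to 625 CPM in model, 451 to 1240 in control and 364 to 723 in HME rats. None of the 6 tested was a member, but all 6 had a negative log2 difference, with a median of -0.21. The part of blood cell content in the Nfe2 result was not tested. Bdh2, a cytosolic hydroxybutyrate dehydrogenase also linked to siderophore synthesis, was at 5.1, 4.76 and 4.69 CPM in model rats and at 8.42 to 11.5 CPM in the others, with a log2 change of -1.01 ± 0.16 (FDR 0.0464 by edgeR).

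**Figure D3:**
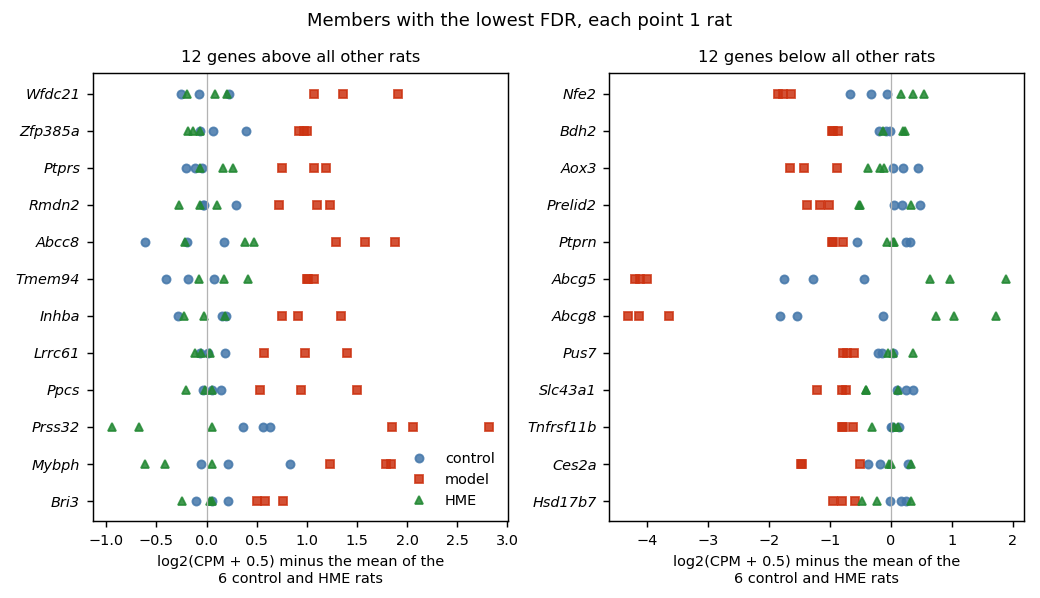
Each point is 1 rat, placed by its log2(CPM + 0.5) minus the mean of the 6 control (circles) and HME (triangles) rats, for the 12 genes above and the 12 genes below with the lowest FDR and a mean of at least 50 counts. The model rats (squares) are to the right of all other rats in the left panel and to the left in the right panel, and Abcg5 and Abcg8 lie farthest out, with the control and HME rats also apart from each other.

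Below these in rank, and past neither FDR, came 4 further genes above and 10 below that the naming rule gives. Ppcs, which joins phosphopantothenate to cysteine in coenzyme A synthesis, was at 115, 58.4 and 77.6 CPM in model rats and at 34.7 to 44.6 CPM in the others (log2 difference 1.05 ± 0.17, FDR 0.0565). Prss32, a serine protease, was at 10.1, 11.8 and 20.2 CPM against 1.03 to 4.06 CPM (2.38 ± 0.39, FDR 0.0565). Mybph and Bri3 had log2 differences of 1.73 ± 0.31 and 0.62 ± 0.12. Coasy, the enzyme that finishes coenzyme A, was also a member, at 66 to 69.4 CPM in model rats against 52 to 64.8 CPM, but by a log2 difference of 0.22 ± 0.10 (FDR 0.702). These were 2 of 6 tested genes of coenzyme A synthesis, a list drawn up after the members were seen.

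Aox3, an aldehyde oxidase, was at 63.4, 54 and 92.7 CPM in model rats, 233, 175 and 197 in control and 132, 158 and 151 in HME rats (log2 difference -1.32 ± 0.22, FDR 0.0565 by edgeR). The HME rats lay between both other groups without touching either. Prelid2, Ptprn and Pus7 were below by log2 differences of -1.25 ± 0.24, -0.96 ± 0.19 and -0.76 ± 0.16. Slc43a1, a transporter of large neutral amino acids, was at 16.2, 17.1 and 12.1 CPM in model rats and 21.4 to 36.9 CPM in the others. Tnfrsf11b, the decoy receptor osteoprotegerin, was at 2.57 to 3 CPM against 3.83 to 5.38 CPM, and Ces2a, a carboxylesterase, was at 50.9, 51.7 and 99.6 CPM against 109 to 179 CPM. The FDR of these 6 genes ran from 0.122 to 0.205.

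The widest differences among genes with at least 50 counts on average were in sterol transport, in a drug-metabolizing enzyme and in a calcium-binding protein. Abcg5 and Abcg8 are neighbouring genes whose products pair up to pump sterols from the hepatocyte into bile. Abcg5 was at 0.685, 0.772 and 0.617 CPM in model rats, 14.6, 5.55 and 7.93 in control and 75.1, 31.6 and 39.8 in HME rats. Abcg8 was at 0.214, 0.129 and 0.494 CPM in model rats, 10.9, 3.05 and 3.8 in control and 40.9, 20.3 and 25.1 in HME rats. For both genes the 3 groups did not overlap, with model lowest, control next and HME highest.

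The log2 differences of Abcg5 and Abcg8 against the pooled arm were -5.38 ± 1.02 and -5.95 ± 1.13, with an FDR of 0.134 for both by edgeR. The pooled arm here held 2 groups that lay apart, and without model rat 3 the difference of Abcg8 was -6.56. In the fit with 3 separate groups, Abcg5 was below control by -3.76 (FDR 0.0103) and below HME by -6.13 (FDR 0.000931), and it was higher in HME than in control by 2.37 (FDR 0.0126). Abcg8 gave -4.43 (FDR 0.0199), -6.68 (FDR 0.00261) and 2.25 (FDR 0.0326) for the same contrasts, which share libraries. Cyp27a1, an enzyme of bile acid synthesis, was also a member, of the 19 genes tested for sterol export and bile acid synthesis, at 211 to 244 CPM against 248 to 298 CPM (FDR 0.716). The median of that list was -0.07, beside -0.01 for all genes tested.

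Cyp2c24, a cytochrome P450 of family 2, was at 0.0428, 0 and 0.37 CPM in model rats, 0.722, 3.17 and 2.46 in control and 11.5, 11.6 and 5.58 in HME rats (log2 difference -5.43 ± 1.21, FDR 0.239). It belongs to a family of similar copies among which reads may be misassigned or lost, so its value is uncertain. The log2 difference was -7.52 without model rat 3 and -4.91 without model rat 1. Cib2, a calcium- and integrin-binding protein, was at 8.22, 11.7 and 26.2 CPM in model rats and at 0 to 1.94 CPM in the others (4.38 ± 0.79, FDR 0.122), and the difference was 3.73 without model rat 3 and 4.96 without HME rat 2. It passed the count filter only with the model rats. St8sia1, the sialyltransferase that makes ganglioside GD3, was at 9.46, 4.25 and 14.9 CPM against 0.481 to 3.72 CPM (2.79 ± 0.55, FDR 0.141), and once the length and GC trend was removed the model rats no longer lay outside the others for this gene. Without HME rat 3 its difference was 3.41.

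Of the 402 genes tested on 28 pathway lists, 35 were members (8.71%, beside 3.78% of all genes tested), 17 above and 18 below, and 0 of the 402 passed an FDR of 0.05, with 83 at an unadjusted p under 0.05. The lists were written with results of these data known, so the share is no independent evidence. Each count of members on a single list is to be read beside the 3.78% of all genes tested, and no list was tested as a set. Of the 28 lists, 11 had no member. Among these were fatty acid synthesis, with 0 of 15 genes outside, and the targets of PPAR alpha and fatty acid oxidation, with 0 of 30. For fatty acid synthesis the median log2 difference was -0.60 against control and 2.04 against HME.

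Cholesterol synthesis and the targets of SREBP2, the transcription factor that drives it, gave the most members below. Of 25 genes tested, 24 had a negative log2 difference (6591 of all 12897 genes did), with a median of -0.50. Members were 5 of the 25, beside 3.78% of all genes tested. Sqle, the squalene epoxidase, was at 46.4, 43.8 and 51.9 CPM against 55.3 to 103 CPM, and Cyp51, the lanosterol demethylase, at 320, 250 and 342 CPM against 362 to 656 CPM.

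Hsd17b7, a reductase that acts in cholesterol synthesis and in the activation of estrogens, was at 22.1, 24.4 and 28.4 CPM in model rats, 48.6, 51.1 and 42.5 in control and 30.8, 36.8 and 54.5 in HME rats. Its log2 difference was -0.82 ± 0.19 (FDR 0.215 by edgeR), the lowest FDR of the list. Tm7sf2, a sterol reductase, was at 102, 61.3 and 167 CPM against 178 to 321 CPM. In Sqle, Cyp51, Hsd17b7 and Tm7sf2 the model rats were below both other groups, and these groups overlapped each other. The list's median was -0.68 against control and -0.27 against HME, -0.60 without model rat 1 and -0.55 with the length and GC trend removed.

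In the urea cycle and ammonia handling 5 of 11 tested genes were members, 3 below and 2 above, beside 3.78% of all genes tested. The median of the list was -0.12, with 3 genes positive and 8 negative. Cps1, carbamoyl phosphate synthetase and the entry step of the cycle, was at 2028, 2985 and 2249 CPM in model rats, 4453, 3784 and 4005 in control and 4439, 3173 and 3981 in HME rats. Its log2 difference was -0.71 ± 0.18 (FDR 0.273 by edgeR). Model rat 1 was lowest for this long transcript, and all 3 model rats stayed below the others with the trend removed (log2 difference -0.65). Asl, argininosuccinate lyase, was at 186, 180 and 168 CPM against 220 to 357 CPM, and Gls2, the liver glutaminase, at 148, 153 and 132 CPM against 162 to 285 CPM.

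Glul, glutamine synthetase, which takes up ammonia in the hepatocytes around the central vein, lay on the opposite side. It was at 464, 682 and 566 CPM in model rats, 286, 363 and 451 in control and 430, 366 and 388 in HME rats (log2 difference 0.58 ± 0.17, FDR 0.443). Glud1, glutamate dehydrogenase, was at 1241 to 1355 CPM in model rats against 860 to 1158 CPM (0.35 ± 0.14, FDR 0.607). With library size alone, Gls2 and Glul overlapped the other rats. Ass1, Otc, Arg1, Nags and the carriers Slc25a13 and Slc25a15 overlapped in the main scaling.

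**Figure D4:**
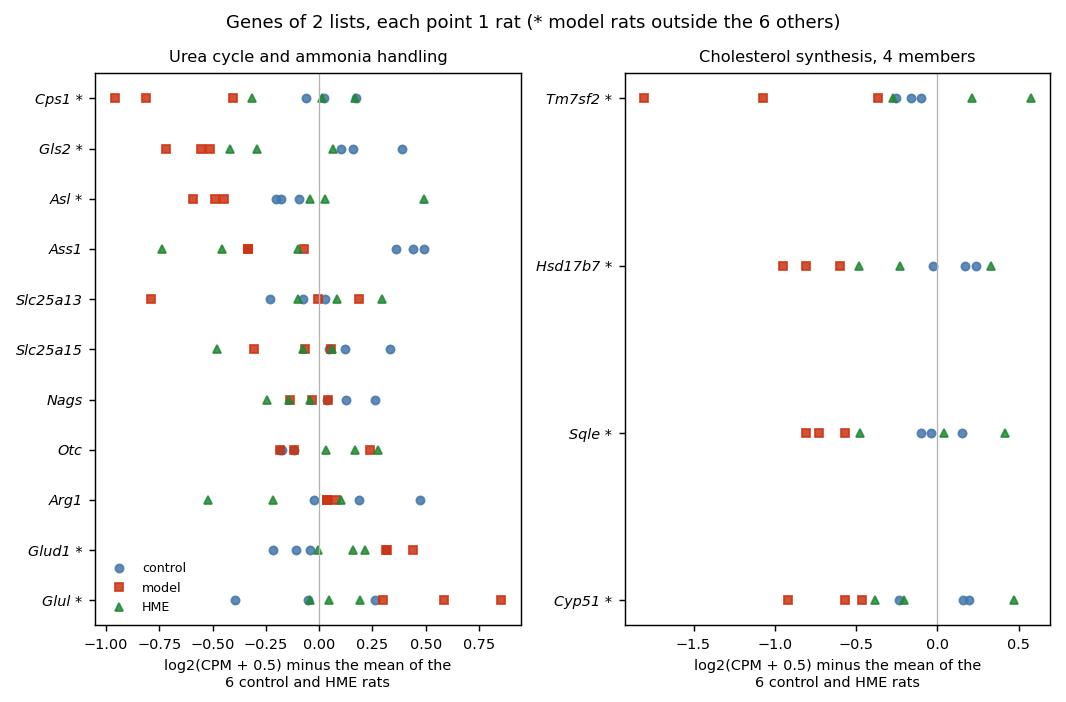
The 11 tested genes of urea cycle and ammonia handling and 4 members of cholesterol synthesis (Sqle, Cyp51, Hsd17b7 and Tm7sf2) are plotted for each rat as log2(CPM + 0.5) minus the mean of the 6 control and HME rats, with model as squares, control as circles and HME as triangles. An asterisk marks members, of which Glul and Glud1 alone lie to the right.

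In glycolysis 2 of 14 tested genes were members, beside 3.78% of all genes tested. Ldha, the lactate dehydrogenase subunit common in muscle, was at 1947, 1256 and 1171 CPM in model rats, 762, 778 and 760 in control and 830, 791 and 891 in HME rats, with model rat 1 highest. Its log2 difference was 0.86 ± 0.17 (FDR 0.122 by edgeR) and 0.79 with the length and GC trend removed. Without model rat 1 it was 0.59 (FDR 0.367 by edgeR). Gckr, the regulatory protein that holds glucokinase in the nucleus and responds to fructose 1-phosphate, was at 356, 290 and 382 CPM in model rats, 144, 166 and 143 in control and 236, 266 and 258 in HME rats. For Gckr the 3 groups did not overlap, in the order control, HME, model, and the HME rats were above control by a log2 difference of 0.75 (FDR 0.0164 in the fit with 3 groups). In that edgeR fit the model rats were above control by 1.18 (FDR 0.00407) and above HME by 0.44 (FDR 0.287).

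Slc2a5, the fructose transporter GLUT5, was the 1 member of 10 tested genes of fructose uptake and fructolysis. It was at 30.2, 22.3 and 33.1 CPM in model rats, 15.1, 21.6 and 20.7 in control and 5.98, 4.91 and 3.67 in HME rats, and the lowest model rat lay close to the highest control rat (log2 difference 1.25 ± 0.52, FDR 0.675). Slc37a4, the glucose 6-phosphate transporter, was the 1 member of 12 tested genes of gluconeogenesis, with a log2 difference of 0.32.

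Among genes of lipid droplets and triglyceride turnover, 2 of 21 tested were members, beside 3.78% of all genes tested. Hsd17b13, a lipid droplet protein of hepatocytes, was at 398, 317 and 284 CPM in model rats, 213, 249 and 187 in control and 230, 185 and 238 in HME rats. The model rats were above, and the other groups were interleaved. The log2 difference was 0.62 ± 0.15 with an FDR of 0.25 by edgeR, and 0.55 with the length and GC trend removed. Without model rat 1 it was 0.46 (FDR 0.83 by edgeR). Dgat1, which adds the last acyl chain of triglycerides, was at 28.3 to 30.5 CPM against 24.1 to 27.8 CPM, a log2 difference of 0.14 ± 0.10.

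Of 14 tested ATF4 targets of the integrated stress response, the pathway that senses amino acid shortage and unfolded protein, Asns and Atf5 were members. Among all genes tested 3.78% were members. Asns, asparagine synthetase, was at 18, 22.8 and 31.8 CPM in model rats, 3.85, 2.75 and 1.47 in control and 4.13, 17.9 and 6.25 in HME rats. HME rat 2 was just below the lowest model rat, and without it the log2 difference of 1.99 became 2.69. Atf5 was at 1050, 515 and 690 CPM in model rats, 247, 282 and 166 in control and 370, 514 and 487 in HME rats, again with 1 HME rat next to a model rat. Both genes overlapped once the length and GC trend was removed, and their FDR was 0.471 and 0.461.

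Amino acid breakdown gave members on both sides. Kmo, the kynurenine monooxygenase, was at 141, 128 and 128 CPM in model rats against 159 to 187 CPM (log2 difference -0.38 ± 0.11, FDR 0.422), while Kynu, the kynureninase that follows it, was at 266, 229 and 264 CPM against 76.2 to 103 CPM in control and 217 to 229 CPM in HME rats. For Kynu the model and HME rats were thus close together and both apart from control. In the breakdown of branched-chain amino acids, a list set up after the members were seen, 4 of 24 tested genes were members. Among all genes tested 3.78% were. Bckdk, the kinase that switches off the branched-chain ketoacid dehydrogenase, was at 44.2, 32.9 and 35.8 CPM in model rats, 24.1, 28.3 and 26.6 in control and 17.8, 17.5 and 23.9 in HME rats (log2 difference 0.71 ± 0.17, FDR 0.269). Enzymes of the later steps were below, Mccc2 at 67.7 to 79 CPM against 83.2 to 99.7 CPM, Ivd at 122 to 148 CPM against 151 to 179 CPM, and Acadsb at 24.5, 66.8 and 69.2 CPM against 69.3 to 112 CPM. The median of the list was 0.01.

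In xenobiotic oxidation and heme supply 2 of 18 tested genes were members, and in conjugation and NRF2 targets 1 of 17, beside 3.78% of all genes tested, and these lay below. Cyp2e1, the ethanol-inducible cytochrome P450, was at 1181, 1241 and 1112 CPM in model rats, 1672, 1810 and 1987 in control and 3052, 2273 and 2014 in HME rats. The model rats formed a narrow group under both others, and the log2 difference was -0.86 ± 0.20 (FDR 0.22 by edgeR). Por, the reductase that supplies electrons to the microsomal P450 enzymes, was at 71.6, 86 and 77 CPM in model rats, 247, 260 and 258 in control and 94.3, 97.2 and 108 in HME rats, so the HME rats stood near the model rats and far from control. In the fit with 3 groups Por was lower in HME than in control by -1.35. Ugt2b17, a glucuronosyltransferase from a family of similar copies, was at 228, 248 and 292 CPM against 294 to 589 CPM, with control rat 3 just above model rat 3.

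Of the acute phase and inflammation genes 3 of 23 tested were members. Of the clock genes, 1 of 6 tested in the arm of BMAL1, CLOCK and NPAS2, 0 of 8 in the arm of PER, CRY and REV-ERB and 1 of 8 of the clock output were members, where 3.78% of all genes tested were. Tnfaip2, a gene induced by TNF, was at 58.9, 77.5 and 74.5 CPM in model rats, 42.1, 52.1 and 34.9 in control and 38.6, 46.5 and 45.4 in HME rats (log2 difference 0.70 ± 0.14, FDR 0.137). Il33, an alarmin cytokine, was below at 45.5, 39.1 and 44.2 CPM in model rats, 128, 126 and 112 in control and 83.8, 53.2 and 68.9 in HME rats (-1.15 ± 0.27, FDR 0.25). In the edgeR fit with 3 groups the HME rats were below control by -0.83 (FDR 0.0206). The model rats were below control by -1.50 (FDR 0.00307) and below HME by -0.68 (FDR 0.127) in that fit. Orm1, an acute phase glycoprotein, was above at 491 to 524 CPM against 215 to 458 CPM. Nlrp12, a sensor protein that restrains NF-kappaB, was no member. It was at 65.3, 49 and 68.3 CPM in model rats, between 37.8 and 46.2 in control and 63.8 and 91.7 in HME rats, with a log2 difference of 0.03 ± 0.28 whose sign turned with library size alone.

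Npas2, a partner of BMAL1 in the core clock, was at 26.8, 15.1 and 33.6 CPM in model rats, 1.2, 2.63 and 1.2 in control and 8.76, 12.8 and 8.48 in HME rats. The 3 groups did not overlap, and the log2 difference was 2.10 ± 0.66 (FDR 0.498), with a pooled arm of 2 groups that lay apart. In the edgeR fit with 3 groups Npas2 was above control by 3.92 in model rats (FDR 0.00271) and by 2.59 in HME rats (FDR 0.00746). The model rats were above HME by 1.33 (FDR 0.175). Tef, a clock output factor, was at 27.8, 57.9 and 37.7 CPM against 59 to 76.8 CPM. Of the immediate early genes, Ier2 was at 96.1, 54.6 and 47.9 CPM against 27.2 to 46.4 CPM, and Fos at 2.65, 3.02 and 2.1 CPM against 0.432 to 2 CPM, both close to the other rats at their nearest point. With library size alone, Asns, Fos, Tnfaip2 and Tef overlapped.

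Of 19 tested genes of mitosis, 7 were members, all of them above and most at low counts. The list was drawn up after members had been seen to be high, and genes this low can pass the count filter through the model rats, so its counts are no evidence of a shift of the group. The summed level of the proliferating-cell markers in model rats overlapped that of control. Ckap2, which binds the spindle, was at 0.942, 2.83 and 1.42 CPM in model rats and at 0.0666 to 0.358 CPM in the others (log2 difference 2.83 ± 0.46, FDR 0.0565 by edgeR). Cdc20, the activator of the anaphase-promoting complex, was at 3.21, 3.67 and 4.81 CPM against 0.756 to 2.04 CPM (1.59 ± 0.32, FDR 0.141). The other 5 were Cenpf, Aurka, Ncapg2, Birc5 and Ccnb1, and model rat 1 was the highest of the model rats for Aurka but the lowest for Cenpf, Ncapg2, Birc5 and Ccnb1.

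The place of the HME rats differed between members. By the rule both groups of the pooled arm lie on 1 side of the model rats. This limits how far the HME rats can lie from control toward the model rats, but not away from them. The size of the difference is given as a description. The mean log2 difference between HME and control was under 0.5 in 412 of 487 members (84.6%), beside 78.3% of all genes tested, and it was at least 1 in 28. The HME mean lay between the control and model means in 275 members and beyond the control mean, away from the model mean, in 212. In the fit with 3 groups, HME and control differed at an FDR of at most 0.05 in 501 of the 12897 genes (3.88%) and in 16 of the 487 members (3.29%).

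Acpp, a phosphatase named here for the low FDR of its HME to control difference and so chosen after its values were seen, was at 58.4, 44.6 and 47 CPM in model rats, 4.53, 9.56 and 7.26 in control and 28.9, 17.5 and 20.1 in HME rats. With Gckr, Npas2 and Kynu it belonged to the genes whose HME level lay between the other groups. Por and Il33 did so on the lower side. Abcg5, Abcg8 and Slc2a5 were of the opposite kind, with the HME rats beyond control. For the 14 genes that rose or fell, a difference between HME and control widens the spread of the pooled arm, so the fit that called them favoured genes in which these groups lie close. On the log2 scale HME minus control was smallest for Wfdc21 (0.06), Inhba (-0.05) and Lrrc61 (-0.10). It was -0.14 for Nupr1l1, -0.16 for Rmdn2, 0.22 for Bdh2, 0.25 for Ptprs and -0.27 for Zfp385a. Larger values were found for Tmem94 (0.36), RGD1311739 (0.43) and Abcc8 (0.48). Slc12a8 and Dtx1, with few reads, gave -0.98 and -1.10. For Nfe2 HME was above control by 0.76 (95% interval 0.24 to 1.28), with an FDR of 0.105 in the edgeR fit with 3 groups.

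The margin between the model rats and the others was narrow for most members. The gap between the nearest model rat and the nearest other rat, on log2(CPM + 0.5), reached 0.5 in 25 of the 487 genes (5.13%), and 388 members had a mean of at least 50 counts. At the edge of the rule, AABR07058894.1 was just inside, with model rat 2 at 0.836 CPM and control rat 2 at the same level after rounding, and Usp7 was just inside on the lower side, with model rat 3 and HME rat 3 both at 70.1 CPM. Washc3 and Rbm14 were just outside, with a model rat and an HME rat both at 24.9 and both at 15.7 CPM.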

How the data were processed

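Gene counts of 9 rat liver libraries were analysed. Per the labels and the methods of the study, the authors aligned the reads with HISAT2 to Rnor_6.0, counted them on exons without regard to strand with HTSeq 0.6.1, and deposited raw counts per gene. Reads of overlapping genes, antisense genes and near-identical copies can thus be misassigned or lost. The labels name the mouse as organism and the Wistar rat as strain; the identifiers are those of the rat, and the group labelled DSS was read as HME. A table of 127 assembled transcripts, each with a value in 1 sample, was not used. Gene symbols are those of the count table.

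The main fit used edgeR 4.0.16 (R 4.3.3) with filterByExpr, TMM, robust glmQLFit and the two-sided glmQLFTest over 2 arms, and FDR is the Benjamini-Hochberg value over all genes tested. Standard errors are those of log2 changes; a fit with 3 groups gave the separate contrasts. Total counts were 14345819 to 26837227. The p-values of the main fit rest on the spread between rats within each arm, which in the pooled arm includes the difference between HME and control. This spread set the precision of all but low counts. Alternatives were DESeq2 1.42.0, limma 3.58.1 (voom), other scalings, filters, thinning, a replicate block, leaving out each rat, and removal of each library's trend in length and GC (loess), with lengths of mouse transcripts from GENCODE matched by symbol. The fit was tested on simulated data.

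Named are the 12 members with the lowest FDR in each direction and the 3 with the largest change, at a mean of at least 50 counts and without clone names; list members at an unadjusted p of at most 0.01; 5 genes of a table of the study; and genes at the edge of the rule. The others named (Kcnj11, Coasy, Cyp27a1, Dgat1, Glud1, Slc2a5, Slc37a4, Kynu, Por, Orm1, Acpp, the 4 low-count or clone-named genes at an FDR of at most 0.05, and those of the branched-chain, channel, coenzyme A and mitosis lists) were chosen after their values were seen. The members and all lists were chosen with earlier results of these data known. No rat sequences were used here. Some single genes are not reported here.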

Additional observations from a re-analysis of the deposited data

Results flagged for a closer look

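Of the 58 named genes, 5 had 1 rat of the 6 control and HME rats far from its neighbours by Dixon's criterion (the gap to the nearest rat against the whole range). Chance gives this in about 1 of 20 groups when all values come from a single normal population. That rate does not carry over here, since the 6 rats belong to 2 groups and most of the genes were selected by the order of the rats. St8sia1 was at 3.72 CPM in HME rat 3, with the next rat at 1.19, and Asns was at 17.9 CPM in HME rat 2, with the next at 6.25. In both genes this rat was the one nearest to the model rats. Tnfrsf11b was at 3.83 CPM in HME rat 3 (next 4.85), again on the side of the model rats. Asl was at 357 CPM in HME rat 1 (next 258) and Washc3 at 20.1 CPM in control rat 1 (next 23.2), both on the side away from the model rats. No explanation of these values was tested.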

How the results depend on the processing

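The count of genes at an FDR of at most 0.01, which was 0, became 9 without a filter, 59 with DESeq2, 24 with 3 groups in the fit and 2 with the length and GC trend removed, and was 14 at an FDR of at most 0.05. It was 0 in every fit that left out 1 rat and under the remaining scalings, filters, thinning, voom and the absence of a minimum change. At an FDR of at most 0.05 edgeR called 2 genes with library size alone, 6 after thinning, 8 with at least 10 counts in every library and 20 without a filter; voom called 15, all of them higher, 3 groups gave 63 and DESeq2 94. Leaving out 1 rat gave 562 to 1621 genes outside (984 without model rat 1, 1621 without model rat 2, 1034 without model rat 3, 750 without HME rat 3), a number that grows by construction when fewer rats must be ordered. With the replicate number as a block, 0 genes were called at either FDR and 680 had an unadjusted p under 0.05; same-numbered rats did not deviate together (correlations from -0.252 to -0.0148), so the numbers name rats only. The causes were not tested. Of 1095 values of the named genes under the alternatives, 1032 kept their direction and stayed uncalled at an FDR of at most 0.01, and 57 kept their direction and were called. No named gene was called at that FDR in the main fit, so none could lose a call. The 1032 therefore describes direction and does not measure how stable the calls are. The other 6 values changed sign, all for Nlrp12 (log2 difference 0.03): -0.034 with library size alone, and -0.073 to 0.19 over the fits with 1 rat left out. In model rat 1, with a voom weight of 0.315, length and group cannot be separated gene by gene, and lengths are those of the mouse.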

Other observations

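The taste receptor genes, listed after the members were seen, gave 1 member on each side. Tas1r1, a subunit of the umami receptor, was at 21.5, 31.5 and 30.1 CPM in model rats, 7.7, 11.5 and 18.6 in control and 3.1, 5.4 and 13.4 in HME rats, with a log2 difference of 1.48 and an FDR of 0.461 by edgeR. The gene listed as Tas1r2, a subunit of the sweet receptor, was at 353, 410 and 385 CPM in model rats and at 492 to 596 CPM in the other 6 (log2 difference -0.43, FDR 0.437), in a tissue where this receptor is not known as an abundant transcript, and reads of an overlapping transcript cannot be told apart from its own in these unstranded counts. Xbp1, a transcription factor of the unfolded protein response, was the 1 member of 18 tested ER chaperone genes, below by -0.78, and Rsad2 was the 1 member of 19 tested interferon-stimulated genes, above by 0.81.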
